A study of Mus with 4 samples.

Results

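Cytochrome c oxidase (complex IV) is the terminal enzyme of the mitochondrial respiratory chain, where it passes electrons from cytochrome c to oxygen and pumps protons. Its catalytic core is encoded by the mitochondrial genome, and the surrounding subunits, which stabilize and tune the core, are encoded in the nucleus. Several nuclear subunits occur in a ubiquitous form and in a form enriched in heart and skeletal muscle, and in the rodent heart the muscle forms gain weight over the ubiquitous ones around and after birth. The genes described here are 10 nuclear-encoded subunits, chosen by Ensembl gene ID with the version suffix dropped. They are *Cox4i1* (ENSMUSG00000031818), *Cox5a* (ENSMUSG00000000088), *Cox5b* (ENSMUSG00000061518), *Cox6c* (ENSMUSG00000014313), *Cox6a1* (ENSMUSG00000041697), *Cox6a2* (ENSMUSG00000030785), *Cox7a1* (ENSMUSG00000074218), *Cox7a2* (ENSMUSG00000032330), *Cox8a* (ENSMUSG00000035885) and *Cox8b* (ENSMUSG00000025488). All 10 were present among the 55487 gene IDs of the table.

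To learn what excess miR-187 does to transcription in the newborn heart, RNA-Seq was carried out on heart tissue at P0, with 2 libraries from WT mice and 2 from miR-187-overexpressing mice. MiR-187 is a microRNA, a short RNA that lowers the output of messenger RNAs it pairs with. In the study's line, on a C57BL/6J background, a single copy of mouse miR-187 under the *Tek* (*Tie2*) promoter, which is active in endothelial cells, was inserted at *Rosa26*; the methods name homozygous (KI/KI) animals, whereas the labels give no zygosity. The labels name no treatment, and neither the litter and sex behind each library nor any pooling of animals is given, although the methods speak of both sexes in the study as a whole, so the spread between libraries of 1 group may be biological or technical.

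The methods speak of cardiac endothelial cells and the labels of heart, and the wording of the labels is kept. The tissue was not checked against cell type markers, because in the sources used here only the IDs of the 10 subunits were paired with names. In each library the muscle forms *Cox6a2*, *Cox7a1* and *Cox8b* were at 135 FPKM or more (fragments per kilobase of transcript relative to all mapped fragments of the library, a level that allows for gene length). Read depth is unknown, since FPKM hold no counts. In such bulk libraries, fewer cells of a type and less RNA per cell cannot be told apart.

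The genes lie on 7 chromosomes, and their RefSeq positions in GRCm38.p6, the assembly that mm10 names, cover the whole gene with its exons and introns. The 3 muscle forms share chromosome 7, with *Cox7a1* at chr7:30184171-30186030, *Cox6a2* at chr7:128205435-128206366 and *Cox8b* at chr7:140898942-140900446. Their ubiquitous partners lie elsewhere, *Cox6a1* at chr5:115345652-115348958, *Cox7a2* at chr9:79755241-79771422 and *Cox8a* at chr19:7215158-7217616. Of the others, *Cox5b* is at chr1:36691487-36693388, *Cox4i1* at chr8:120668225-120674209, *Cox5a* at chr9:57517328-57532427 and *Cox6c* at chr15:35931976-35938246. *Cox6a2* overlaps the end of the span of *Itgad* by 70 bases, and the span of *Cox7a2* overlaps *Tmem30a* and a pseudogene, so reads of these 2 genes could be shared with a neighbour. RefSeq names 2 pseudogenes after members, *Cox6c2* and *Cox5b-ps*, and 0 other IDs in the table lay within 5% of a member in every library.

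All of these messages were abundant. Within single libraries the highest-ranked of the 10 stood between rank 30 and rank 44 of all gene IDs, and the lowest-ranked between rank 181 and rank 373. The 10 genes together held 0.936% (WT replicate 1), 1.80% (WT replicate 2), 0.686% (miR-187 replicate 1) and 0.872% (miR-187 replicate 2) of the FPKM sum. The share in WT replicate 2 was thus above that of every other library, including its own replicate.

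*Cox4i1*, the ubiquitous form of subunit 4, an early partner of the core in assembly, had the highest mean level over the 4 libraries, 1687 FPKM. *Cox6c*, a small membrane subunit, followed with 1411 FPKM. *Cox7a1* was lowest in every library, with a mean of 251 FPKM. The order was *Cox4i1*, *Cox6c*, *Cox6a2*, *Cox5a*, *Cox8a*, *Cox7a2*, *Cox6a1*, *Cox5b*, *Cox8b* and *Cox7a1*. Of the 9 steps between neighbours, 3 held in all libraries and exceeded the spread of their log2 ratio over the libraries, namely *Cox6c* over *Cox6a2*, *Cox6a1* over *Cox5b* and *Cox8b* over *Cox7a1*. The other 6 neighbouring pairs did not differ beyond their spread.

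**Figure D1:**
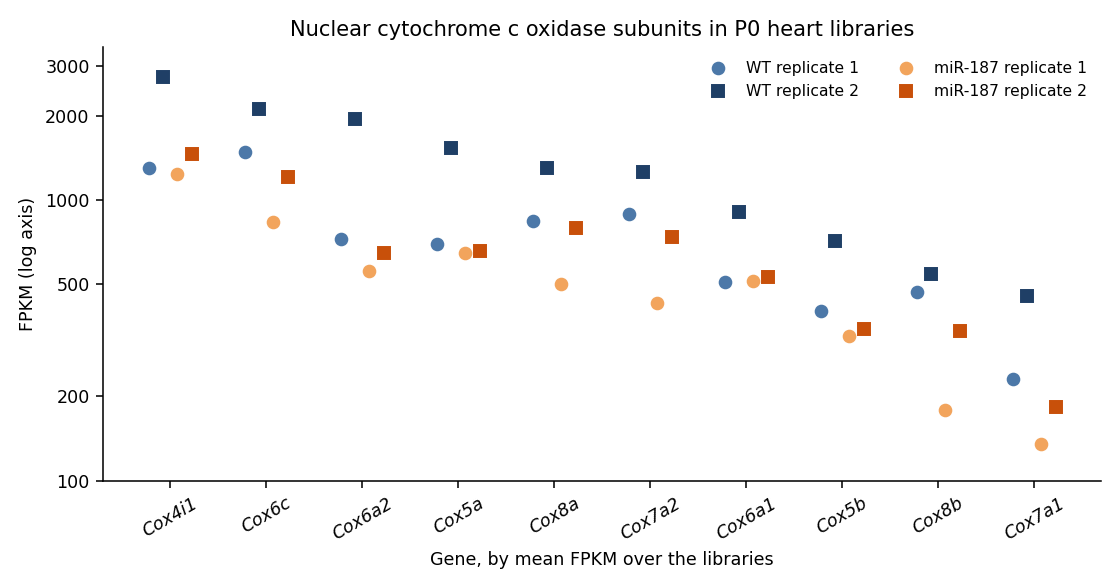
FPKM (log axis) of the 10 genes in each of the 4 libraries, 1 point per library, with genes ordered by mean level. WT replicate 2 (dark blue squares) is highest for every gene, and miR-187 replicate 1 (light orange circles) is lowest for 9 of 10.

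The comparison of groups gave lower mean log2 values in miR-187 hearts for all 10 genes, as for 55.7% of all tested genes, but none of the 10 passed the test across all genes. For the 14325 gene IDs whose mean reached 1 FPKM, log2(FPKM + 1) was compared with limma, and all 10 members passed this filter. The number of members with a Benjamini-Hochberg adjusted p under 0.05 was 0, with an adjusted p of 1.00 for each of them (limma), against 1 lower gene among all tested (0.00698%) and 0 higher (0.00%). Before adjustment 2 of the 10, *Cox7a1* and *Cox8b*, had a p under 0.05, where 1.80% of all tested genes were lower with such a p. Both miR-187 libraries lay below both WT libraries for 8 of 10 members, against 13.2% of all tested genes, and above them for 0 of 10, against 12.3%. The 10 genes come from the same 4 libraries and are not independent of one another.

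The median log2 difference of the 10 genes, miR-187 minus WT, was -0.77, with values from -1.04 to -0.38. Over all tested genes the median was -0.044. All 10 members had their highest value in WT replicate 2, as had 29.1% of all tested genes. MiR-187 replicate 1 held the lowest value of 9 members, as of 16.0% of all tested genes. In the geometric mean of the 10 genes, WT replicate 2 stood at 1164 FPKM, WT replicate 1 at 663 FPKM, and miR-187 replicates 1 and 2 at 449 and 589 FPKM. The step between the WT libraries was 1.76-fold, and that between the miR-187 libraries 1.31-fold. From WT replicate 1 the step down was 1.48-fold to miR-187 replicate 1 and 1.13-fold to miR-187 replicate 2. From WT replicate 2 these steps were 2.59-fold and 1.98-fold.

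Genes were also grouped by level, with the members counted in their classes. Of 493 gene IDs whose mean lay from 100 to 1000 FPKM, 8 of them members, 56.4% were highest in WT replicate 2 and 47.5% lowest in miR-187 replicate 1. Median deviations from the gene means in that class on the log2 scale were -0.12 (WT replicate 1), 0.26 (WT replicate 2), -0.23 (miR-187 replicate 1) and 0.013 (miR-187 replicate 2). In the class of at least 1000 FPKM, with 55 IDs that include *Cox4i1* and *Cox6c*, 30.9% were highest in WT replicate 2 and 56.4% lowest in miR-187 replicate 1. WT replicate 2 had a median deviation of -0.025 there, whereas miR-187 replicate 2 had 0.19, so this class as a whole was not raised in WT replicate 2. For the 10 members the median deviations were -0.025, 0.72, -0.63 and -0.15 in order of group and replicate. The part of these library-wide shifts in the members' difference was not tested. With each library centred on genes of at least 100 FPKM, a setting chosen after seeing the data, the members' median difference was -0.59 while the median of all tested genes was 0.14.

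Without WT replicate 2 the members' median log2 difference shrank to -0.34, and without WT replicate 1 it grew to -1.11. It was -0.56 without miR-187 replicate 1 and -1.07 without miR-187 replicate 2, so that leaving out either the highest WT or the lowest miR-187 library brought it nearer to 0. For *Cox6c*, *Cox7a2*, *Cox8a* and *Cox8b* the smallest difference was the one without miR-187 replicate 1, for example -0.52 for *Cox7a2*, against -0.66 without WT replicate 2. With WT replicate 1 as the lone WT library, 8 of 10 differences remained below 0, against 51.9% of all tested genes, and *Cox4i1* and *Cox6a1* turned to 0.047 and 0.038. With WT replicate 2 as the lone WT library, 8 members had an unadjusted p under 0.05 and none an adjusted one, the smallest adjusted p being 0.112 for *Cox6a2* (limma). In that same fit 4.64% of all tested genes were lower with an unadjusted p under 0.05, and 56 lower and 42 higher genes passed after adjustment. In these fits the lone library is assumed to vary like the other group.

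**Figure D2:**
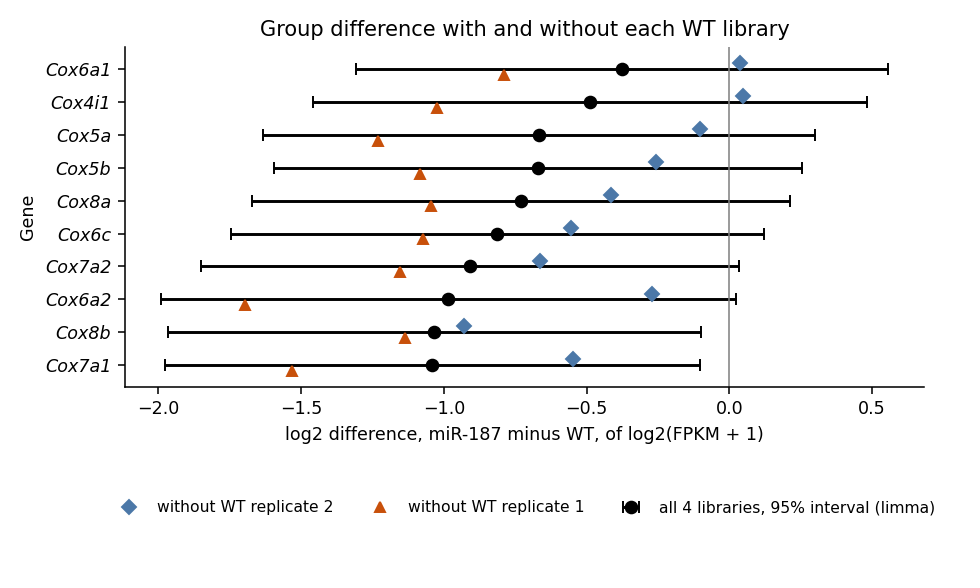
Log2 difference of log2(FPKM + 1), miR-187 minus WT, for each gene: black points and bars give the value from all 4 libraries with its 95% interval (limma), blue diamonds the value without WT replicate 2 and orange triangles that without WT replicate 1. The interval includes 0 for 8 genes, and the blue diamonds of *Cox4i1* and *Cox6a1* lie above 0.

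Among the subunits with no muscle counterpart in the set, *Cox4i1* overlapped between groups. WT replicates 1 and 2 gave 1304 and 2741 FPKM, and the corresponding miR-187 libraries 1242 and 1463 FPKM. The WT mean was 2022 ± 1015 FPKM, against a miR-187 mean of 1352 ± 156 FPKM (SD, n = 2 each). Its log2 difference came to -0.49 (SE 0.47, 95% interval -1.46 to 0.48; limma adjusted p = 1.00).

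*Cox5a*, a matrix-side subunit that binds a thyroid hormone metabolite, stood at 699 and 1528 FPKM for WT, compared with 645 and 656 for miR-187. The miR-187 libraries were nearly equal and both lay below WT replicate 1, whose value was 1.07 times the higher of them. *Cox5b*, the zinc-binding matrix-side subunit, showed the same layout, at 403 and 716 FPKM for WT, compared with 329 and 346 for miR-187. For both genes the step between the 2 WT libraries, 2.19-fold and 1.78-fold, was larger than the difference between groups on the log2 scale, -0.67 for each. Without WT replicate 2 the differences of *Cox5a* and *Cox5b* were -0.10 and -0.26, and without WT replicate 1 they were -1.23 and -1.08.

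*Cox6c* reached 1478 and 2119 FPKM in WT hearts but 836 and 1212 in miR-187 hearts. The groups did not overlap, and the steps within groups were alike, 1.43-fold in WT and 1.45-fold in miR-187. Its log2 difference was -0.81 (SE 0.45, 95% interval -1.75 to 0.12; limma adjusted p = 1.00).

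Subunit 6A sits at the interface of the dimeric enzyme. Over all 4 libraries its forms gave the widest contrast of the isoform pairs, a difference of log2 ratios of -0.61. Without WT replicate 2 subunit 8 gave a wider one, -0.52 against -0.31. *Cox6a1*, the ubiquitous form, was measured at 510 and 905 FPKM in the WT hearts, against 516 and 530 in the miR-187 hearts, so that WT replicate 1 lay just below both miR-187 libraries. *Cox6a2*, the heart and skeletal muscle form, stood at 727 and 1949 FPKM for WT, compared with 560 and 646 for miR-187. Here both miR-187 libraries lay below WT, and the 2.68-fold step between the WT libraries exceeded that of every other member. The log2 differences were -0.38 (SE 0.45, 95% interval -1.31 to 0.55) for *Cox6a1* and -0.98 (SE 0.48, 95% interval -1.99 to 0.023) for *Cox6a2*. The difference of *Cox6a2* moved to -0.27 without WT replicate 2 and to -1.69 without WT replicate 1, and lay at -0.88 and -1.09 without miR-187 replicates 1 and 2.

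The ratio of *Cox6a2* to *Cox6a1* was 1.43 and 2.15 in the WT libraries, against 1.08 and 1.22 in the miR-187 libraries, each in order of replicate number. The muscle form was thus above the ubiquitous one in each library, and the ratio was lower in both miR-187 libraries than in both WT libraries. The mean ratio was 1.79 ± 0.514 for WT, compared with 1.15 ± 0.0939 for miR-187 (SD, n = 2 each). The difference of log2 ratios was -0.61, close to the step of 0.59 between the WT libraries, with an exact two-sided permutation p of 0.333, the smallest that 2 libraries against 2 allow (0.667 adjusted over the 3 isoform pairs). Without WT replicate 2 the difference was -0.31, and without WT replicate 1 it was -0.91.

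Subunit 7A contributes to the dimer and to contacts with other respiratory complexes, and *Cox7a1*, its muscle form, is also a known message of brown fat. *Cox7a1* reached 230 and 456 FPKM in WT hearts but 135 and 182 in miR-187 hearts. *Cox7a2*, the ubiquitous form, was measured at 894 and 1256 FPKM in the WT hearts, against 429 and 740 in the miR-187 hearts. Neither gene overlapped between groups. Log2 differences were -1.04 (SE 0.45, 95% interval -1.98 to -0.10, limma unadjusted p = 0.0310, adjusted p = 1.00) for *Cox7a1* and -0.91 (SE 0.45, 95% interval -1.85 to 0.034) for *Cox7a2*. The difference of *Cox7a1* was -1.53 without WT replicate 1 and -0.55 without WT replicate 2, and it was -0.83 and -1.26 without miR-187 replicates 1 and 2.

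The ratio of *Cox7a1* to *Cox7a2* was 0.257 and 0.363 in WT, and 0.314 and 0.246 in miR-187. The ubiquitous form led in every library, and the groups overlapped. The difference of log2 ratios, -0.14, was smaller than the step between the WT libraries, 0.50 (exact two-sided permutation p = 0.667). It turned to 0.11 without WT replicate 2 and to 0.040 without miR-187 replicate 2.

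Subunit 8 is a small hydrophobic subunit, and *Cox8b*, its muscle form in rodents, is likewise known from brown fat. *Cox8b* stood at 472 and 545 FPKM for WT, compared with 179 and 342 for miR-187. The WT libraries agreed more closely for this gene than for any other member, at 1.15-fold, whereas the miR-187 libraries were 1.91-fold apart. The lower of its WT values was 1.38 times the higher of its miR-187 values, a wider gap than for the other 9 genes. The log2 difference was -1.03 (SE 0.45, 95% interval -1.97 to -0.10, limma unadjusted p = 0.0316, adjusted p = 1.00). It was -1.14 without WT replicate 1, -0.93 without WT replicate 2, -0.57 without miR-187 replicate 1 and -1.50 without miR-187 replicate 2.

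*Cox8a*, the ubiquitous form, reached 842 and 1305 FPKM in WT hearts but 504 and 792 in miR-187 hearts, with no overlap and a log2 difference of -0.73 (SE 0.45, 95% interval -1.67 to 0.21). That difference was -1.05 without WT replicate 1, -0.41 without WT replicate 2, -0.40 without miR-187 replicate 1 and -1.06 without miR-187 replicate 2. The ratio of *Cox8b* to *Cox8a* was 0.560 and 0.417 in WT, and 0.355 and 0.431 in miR-187. The groups overlapped, since WT replicate 2 lay below miR-187 replicate 2. The difference of log2 ratios was -0.31, against a step of 0.43 between the WT libraries (exact two-sided permutation p = 0.667), and it moved to -0.092 without WT replicate 1 and to -0.52 without WT replicate 2.

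**Figure D3:**
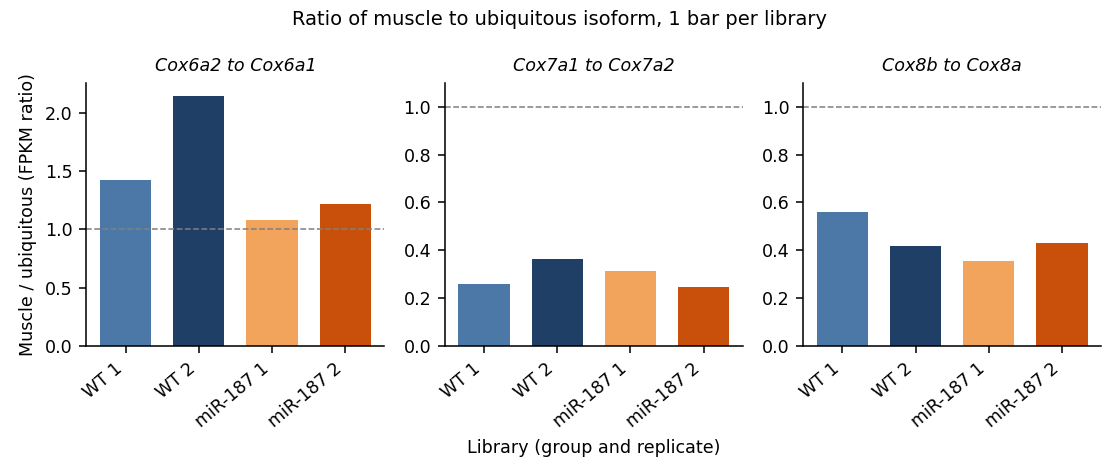
Ratio of FPKM of the muscle form to the ubiquitous form of subunits 6A, 7A and 8, with 1 bar per library, the dashed line at a ratio of 1 and a separate axis for each pair. Only *Cox6a2* to *Cox6a1* is above 1, in all 4 libraries, with both miR-187 bars (1.08 and 1.22) below both WT bars.

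Across the isoform pairs, muscle forms made up 38.9% (WT replicate 1), 46.0% (WT replicate 2), 37.6% (miR-187 replicate 1) and 36.2% (miR-187 replicate 2) of the summed FPKM of subunits 6A, 7A and 8. The miR-187 libraries lay below both WT libraries, but WT replicate 1 stood nearer to them than to its own replicate. The 3 pairs did not share an order of libraries. The ratio was highest in WT replicate 2 for subunits 6A and 7A, and in WT replicate 1 for subunit 8.

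To compare the mix of subunit messages apart from the library-wide level, each gene was set against the geometric mean of the 10 genes in its own library, a value that no scaling factor per library can change. On this log2 scale *Cox4i1* was at 0.98 and 1.24 in WT and at 1.47 and 1.31 in miR-187. *Cox6a1* was at -0.38 and -0.36 in WT and at 0.20 and -0.15 in miR-187. *Cox7a1* was at -1.53 and -1.35 in WT and at -1.73 and -1.69 in miR-187. Both miR-187 libraries were thus above both WT libraries for 2 of 10 members and below them for 1 of 10. Set against the same geometric means, 44.8% of all tested genes were above and 0.391% below. Those means were themselves lower in both miR-187 libraries (449 and 589 FPKM) than in both WT libraries (663 and 1164 FPKM). The members are centred on them by construction, which binds no other gene. These shares are therefore no background for the members' counts. The other 7 members overlapped, among them the ubiquitous forms *Cox7a2*, with a mean difference of -0.14, and *Cox8a*, with 0.041. *Cox8b* varied most, over a range of 0.84 log2 units, and *Cox8a* least, over 0.26. These relative levels are given as a description, without a test.

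**Figure D4:**
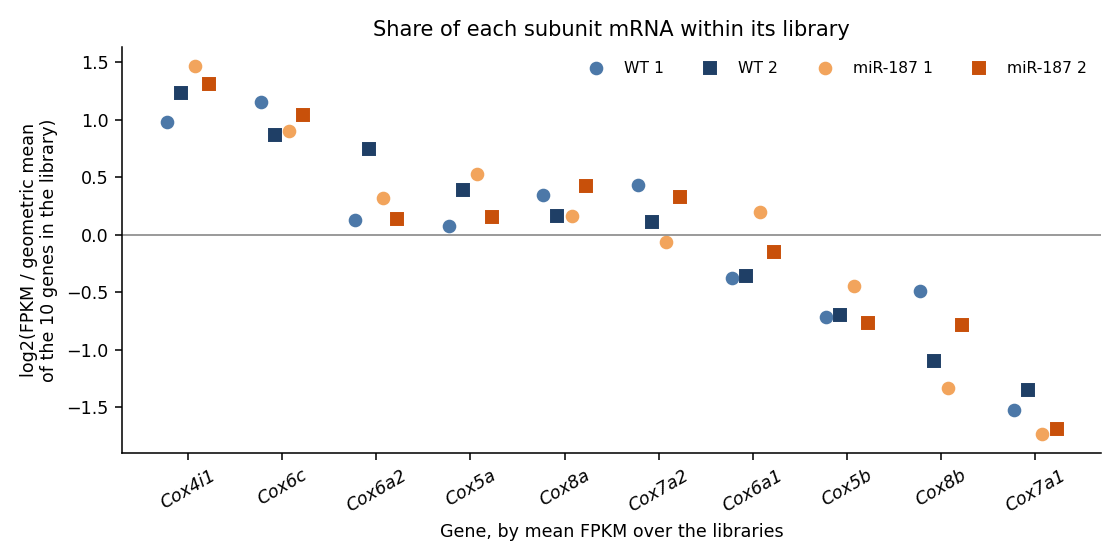
Level of each gene relative to the geometric mean of the 10 genes in the same library, as log2, with 1 point per library. Both miR-187 points (orange) lie above both WT points for *Cox4i1* and *Cox6a1* and below them for *Cox7a1*, and the groups overlap for the other 7 genes. The shares of all tested genes on this scale, 44.8% above and 0.391% below, are no background. Only the 10 genes are centred on their own mean.

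The 10 genes were sorted by whether the log2 step between the WT libraries exceeded the group difference, a cut read from their values. *Cox7a1* lay near this cut, with a WT step of 0.98 against a group difference of -1.04. The same sorting was not counted over all tested genes. For *Cox4i1*, *Cox5a*, *Cox5b*, *Cox6a1* and *Cox6a2*, the step between the WT libraries exceeded the group difference, and miR-187 replicate 2 was at most 1.18 times replicate 1. For *Cox6c*, *Cox7a1*, *Cox7a2*, *Cox8a* and *Cox8b*, the group difference exceeded the steps within both groups, and miR-187 replicate 2 was 1.35 to 1.91 times replicate 1. As a description over only 4 libraries, which share their library-wide shifts, Pearson's r between the members' log2 values ranged from 0.57 to 1.00 over the 45 pairs of genes, with a median of 0.92.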

How the data were processed

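The authors deposited 1 table of FPKM values for 4 libraries. According to the submitters' processing notes the tools were HISAT2, StringTie and DESeq2 and the build mm10; versions, annotation and use of strand are not given in the sources used here. FPKM is a value relative to gene length and to the library's mapped total, so a few abundant transcripts can lower all other values of a library. No whole-read steps were found (among 1909 low IDs the most frequent ratio between the WT libraries occurred 5 times), so depth is unknown and no counting interval is given.

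IDs whose mean reached 1 FPKM were compared as log2(FPKM + 1) with limma 3.58.1 in R 4.3.3 (eBayes with a mean-variance trend, two-sided, Benjamini-Hochberg, threshold 0.05, no replicate block). Differences on this scale slightly understate change. The procedure was first tested on simulated data, with planted changes larger than any member's difference and noise independent between genes. It was therefore not tested on changes of the members' size. Isoform ratios used FPKM without a pseudocount and exact permutation tests (scipy 1.17.1). A step in level order was taken as beyond its spread where the mean log2 ratio exceeded its SD over the libraries. All 10 members are named, by rule. The members and lists were chosen with earlier results of these data known.

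The table holds no gene names, and the RefSeq table of 49997 genes, used for positions of the 10 members by symbol, holds 0 Ensembl IDs. The 18 gene lists, with 182 symbols of other respiratory subunits, assembly factors, regulators and cell type markers, were therefore not analysed here, and no sequence is printed. The libraries' genotype was not checked either. Alternatives were another pseudocount, filter, scaling and variance model, a replicate block, and fits that left out each library in turn.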

Additional observations from a re-analysis of the deposited data

How the results depend on the processing

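Over 15 alternative settings of the fit, 0 of the 10 genes had an adjusted p under 0.05 in any of them (limma), with adjusted p-values from 0.112 (*Cox6a2* without WT replicate 1) to 1, and the number with an unadjusted p under 0.05 ran from 0 to 8. Of 150 values for single genes, 148 kept their direction and 2 turned, both without WT replicate 2: with 1 library left out, *Cox4i1* ran from -1.02 to 0.047 and *Cox6a1* from -0.79 to 0.038. The number of genes with both miR-187 libraries below WT was 6 with median centring (12.8% of all tested genes) and TMM factors (12.7%), 7 with quantile normalization (13.7%), and 10, 8, 8 and 9 without WT replicate 1, WT replicate 2, miR-187 replicate 1 and miR-187 replicate 2 (34.3%, 31.3%, 44.2% and 24.0%). The median log2 difference ran from -1.11 to -0.34 with 1 library left out, and was -0.52 with quantile normalization and -0.59 when centred on genes of at least 100 FPKM, the latter a setting chosen after seeing the data that moved the median of all tested genes from -0.044 to 0.14.

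With the replicate block, 0 members passed (limma adjusted p of 1.00 for each) and 5 had an unadjusted p under 0.05, where 2.09% of all tested genes were lower with such a p and 18 lower and 33 higher genes passed; the ratio differences were the same by construction, -0.61, -0.14 and -0.31, with exact p-values of at least 0.5. Deviations of same-numbered libraries correlated with r = -0.0675 over the tested genes, and nothing in the labels ties equal numbers to a litter or batch, so equal numbers were not treated as pairs. The difference of log2 ratios ran from -0.91 to -0.31 for *Cox6a2* to *Cox6a1*, from -0.38 to 0.11 for *Cox7a1* to *Cox7a2*, with 0.040 without miR-187 replicate 2, and from -0.52 to -0.092 for *Cox8b* to *Cox8a* with 1 library left out; the cause was not tested. Rescaling without the mitochondrial genes and the gene lists was not run, for want of names. In its place, omission of the most abundant ID from the sum and robust eBayes were chosen after seeing the data, with 0 members called in each (limma) and 6 and 3 at an unadjusted p under 0.05 (1.83% and 2.15% of all tested genes lower).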

Other observations

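Among 1040 other gene IDs whose mean reached 50 FPKM, the profile most like the median of the 10 subunits, by Euclidean distance between log2(FPKM + 1) deviations over the 4 libraries, was that of ENSMUSG00000020949.9, with a distance of 0.0584. This ID reached 169 and 294 FPKM in the WT hearts but 110 and 155 in the miR-187 hearts. For the 3 muscle forms the nearest was ENSMUSG00000029432.12, at a distance of 0.116, at 65.0 and 128 FPKM for WT, compared with 41.7 and 52.3 for miR-187. The table pairs neither ID with a name. With 4 libraries such likeness is a description only, and its cause was not tested.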
